A study of Homo sapiens with 6 samples.

Results

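The enzymes that add methyl groups to histone lysines and those that remove them were compared between HCT116 cells labelled control and HCT116 cells labelled shikonin. Genes were taken by their symbols, which had to start with KMT2, KMT5, KDM, SETD, EHMT, EZH, NSD, DOT1L or SUV39H. Of 55 genes with such a symbol, 4 pseudogenes were left out, and so were NSDHL, a sterol dehydrogenase, and EZHIP, an inhibitor of the H3K27 methyltransferase complex. Of the 49 genes that remained, 46 had enough counts to be tested among 13548 tested genes of 35106 in all. The other 3, KDM4E, KDM4F and KDM5D, had at most 1 count in any library.

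HCT116 cells are a colorectal cancer line of human origin. Shikonin, a naphthoquinone, comes from the root of Lithospermum erythrorhizon. The 3 control libraries carry the treatment label none and the other 3 the label shikonin, and are called controls and libraries with shikonin below. All 6 were of genotype WT and grown in DMEM with serum. The labels give 8 μM shikonin for 24 h, whereas the study's methods give a lower concentration for the same time, and every direction below follows the sample labels. Libraries held between 18845690 and 21765806 estimated counts. Of 8 markers of colon epithelial cells, 7 had a mean of at least 1 CPM and VIL1 was at 0 in all libraries, where CPM is a count relative to the scaled total of its library. Their summed level was 4090 to 4430 CPM in the control group and 4120 to 4810 in the shikonin treatment group. The 4 leukocyte markers summed to at most 0.348 CPM in any library and the 3 endothelial markers to at most 1.87, most of it VWF. The 4 fibroblast markers summed to 30.9 to 34.5 CPM in the control group and 26.6 to 35.1 in the shikonin treatment group, almost entirely COL1A1, with DCN and PDGFRA at 0 in all libraries. Whether replicates were grown as separate cultures is not said, and the p-values therefore cover the spread among the 6 libraries, which may be technical.

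Methylation of histone lysines marks the state of chromatin. Methylated H3K4 lies at active promoters and enhancers, H3K36 and H3K79 methylation lie over transcribed genes, and H3K9, H3K27 and H4K20 methylation are tied to silent or compacted chromatin. Most of the methyltransferases carry a catalytic SET domain and take the methyl group from S-adenosylmethionine, while DOT1L has a different fold. The demethylases KDM1A and KDM1B use flavin, and the other KDM proteins belong to the JmjC family, which needs iron, oxygen and 2-oxoglutarate. In colorectal cancer EZH2, the enzyme of Polycomb repressive complex 2, is known to be highly expressed, and genes of the KMT2 family are often mutated.

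The 46 genes were measured over a wide range of levels. Per kb of transcript, the mean level in the control group ran from 0.809 CPM for KDM8 to 48.9 for KDM1A, with a median of 9.38. The flavin enzyme KDM1A was the highest at 48.9 ± 0.50 CPM per kb (SD, n = 3). It was followed by the H3K9 and H3K36 demethylase gene KDM4A at 38.4 ± 0.723 (with 40.2% of its exon bases shared with another annotated gene on the same strand), the X-linked H3K4 demethylase gene KDM5C at 36.3 ± 0.975 and SETD7 at 35.4 ± 1.46. KDM6B, an H3K27 demethylase, was at 34.5 ± 1.62, so that KDM5C, SETD7 and KDM6B did not differ beyond their spread. The H3K9 methyltransferase genes SUV39H1 and SUV39H2 lay near the lower end at 2.33 ± 0.222 and 3.06 ± 0.301 CPM per kb. EZH2 was at 11.6 ± 0.658 and its paralog EZH1 at 5.43 ± 0.288. KDM4D, KDM8 and SETD9 rested on few counts, with 45 to 61 counts of KDM4D per library, 21 to 59 of KDM8 and 46 to 72 of SETD9. EHMT2 varied widely among replicates, at 28.7, 40.8 and 51.0 CPM in controls and 31.6, 43.3 and 32.1 with shikonin.

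**Figure D1:**
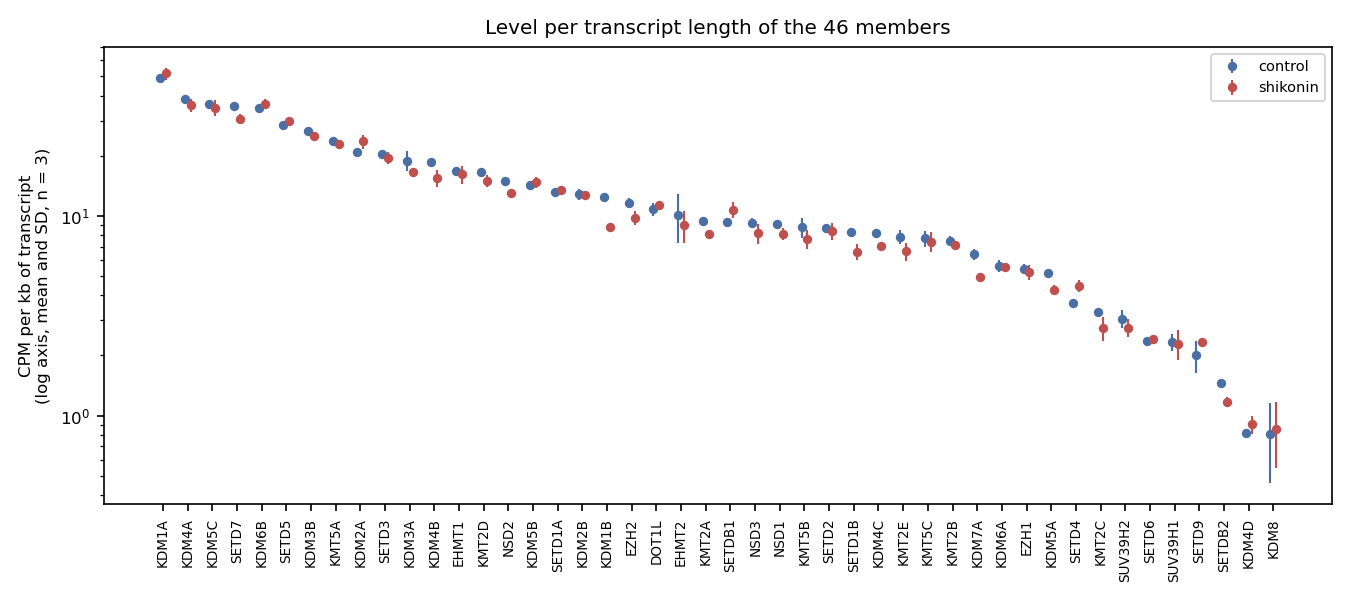
Level of each of the 46 genes in CPM per kb of transcript on a log axis, as mean and SD of 3 libraries, for the control group (blue) and the shikonin treatment group (red), ordered by the control level. KDM1A is the highest at 48.9 and KDM8 the lowest at 0.809, and KDM1B stands at 12.4 in the control group and 8.75 in the shikonin treatment group.

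Of the 46 genes, 7 were lower in the shikonin treatment group, and none was higher, while 39 missed the threshold of 0.05 on the adjusted p of the quasi-likelihood test in edgeR. The lower genes were KDM1B, KDM7A, SETD1B, KDM5A, KDM4B, KMT2A and SETD7. They made up 15.2% of the 46, against 11.1% called lower among all tested genes, and 10.8% of all tested genes were called higher. DESeq2 and limma-voom called the same 7 lower and none higher, against 10.6% lower and 11.8% higher of all tested genes with DESeq2 and 11.1% and 10.6% with limma-voom. At an unadjusted p under 0.05, 15 genes were lower and 3 were higher, against 18.0% and 16.6% of all tested genes. With library totals as the only scaling 14 members were lower and none higher, against 15.9% and 7.62% of all tested genes. In bulk RNA fewer cells that express a gene and less RNA of it per cell cannot be told apart. The median log2 fold change was -0.07, beside -0.02 over all tested genes, and for 41 of the 46 genes the 95% interval lay within a fold of 1.5 in either direction. The intervals of KDM1B, SETDB2, SETD9, KDM4D and KDM8 reached beyond it.

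In 14 of the 46 genes (30.4%) every library labelled shikonin lay below every control library, against 20.3% of all tested genes. In 3 genes, KDM2A, SETD4 and SETDB1, every library labelled shikonin lay above (6.52%, against 18.1% of all tested genes). In the other 29 genes the groups overlapped. These shares are set against genes of all transcript lengths, and those among genes of similar length were not computed.

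KDM1B, which encodes the second flavin-dependent H3K4 demethylase, showed the largest change. It was at 59.5, 53.8 and 54.8 CPM in controls and 41.3, 38.2 and 39.6 with shikonin. The groups were clearly apart, with the highest shikonin library below the lowest control library. KDM1B fell by 29.1% (log2 fold change -0.50, standard error 0.08, 95% interval -0.67 to -0.33, adjusted p = 0.000724). It was called lower in each of the 16 alternative settings, with log2 fold changes between -0.56 and -0.42 and adjusted p of at most 0.00881. KDM1A, its paralog, was at 152.8, 150.1 and 150.1 CPM in controls and 168.5, 161.8 and 147.4 with shikonin. Here the groups overlapped, and the log2 fold change was 0.08 with an interval from -0.08 to 0.23.

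KDM1B lies on chromosome 6 (18155329 to 18223854, plus strand, GRCh38), and KDM2A, a JmjC demethylase gene, on chromosome 11 (67119263 to 67258082, plus strand). Their promoter windows from RefSeq, build GRCh38.p14, run from 250 bases before to 50 bases after the RefSeq start. They are shown since KDM1B was lower and KDM2A higher under both offsets for transcript length described with the length trend, and capitals mark every CpG.
KDM1B, chr6:18155172-18155471: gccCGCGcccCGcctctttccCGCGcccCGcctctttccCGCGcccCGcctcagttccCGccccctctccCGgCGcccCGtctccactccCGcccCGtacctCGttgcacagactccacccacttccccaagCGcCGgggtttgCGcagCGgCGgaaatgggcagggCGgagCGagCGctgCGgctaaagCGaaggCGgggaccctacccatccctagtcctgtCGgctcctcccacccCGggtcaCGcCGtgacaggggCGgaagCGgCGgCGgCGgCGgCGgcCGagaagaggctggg
KDM2A, chr11:67119013-67119312: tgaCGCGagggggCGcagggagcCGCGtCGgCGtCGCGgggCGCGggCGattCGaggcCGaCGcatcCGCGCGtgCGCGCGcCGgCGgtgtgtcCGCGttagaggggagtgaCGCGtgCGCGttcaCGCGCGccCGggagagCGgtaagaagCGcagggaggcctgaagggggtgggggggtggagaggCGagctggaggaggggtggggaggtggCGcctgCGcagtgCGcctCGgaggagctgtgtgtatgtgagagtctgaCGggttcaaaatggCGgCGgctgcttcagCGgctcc
The KDM1B window holds 39 CpG dinucleotides and the KDM2A window 44, against a median of 30 over the 43 members with a window in the table and 14 over all 27305 windows. No window was matched for DOT1L, NSD3 and SETD1B. For description, 5 short motifs, none of which contains another, were searched on both strands of each window. GGGCGG was found in the KDM1B window and on neither strand of the KDM2A window, in 79.1% of the members and in 44.6% of all windows. CACGTG was in neither, in 18.6% of the members and in 7.43% of all windows. TATAAA was in none of the 43 members and in 12% of all windows. TGACNNNGC was in 6.98% of the members and 13.6% of all windows, and CCAAT in 34.9% and 35.7%. The 27305 windows outnumber the 13548 tested genes, and shares over tested genes alone were not computed. A match or its absence describes these letters only.

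Among the 8 genes grouped as H3K4 methyltransferases, 3 were lower and 5 did not pass. KMT2E is counted here as a KMT2 gene, and no enzyme activity was measured. The share of lower genes was 11.1% among all tested genes and 21.8% among the fifth with the longest transcripts, to which all 8 belong. Their median log2 fold change was -0.21, and 7 of 8 lay below 0 (8 of 8 with library totals as the only scaling). With the offset for length and GC content of transcripts described with the length trend, the median was -0.07 and 6 of 8 lay below 0. SETD1B, the catalytic subunit of a COMPASS complex, was at 73.1, 72.8 and 67.7 CPM in controls and 62.2, 56.4 and 51.2 with shikonin. The groups did not overlap (log2 fold change -0.33, standard error 0.08, adjusted p = 0.0119). KMT2A, also known as MLL1 and needed for expression of HOX genes, was at 158.8, 162.1 and 149.3 against 131.4, 139.0 and 134.0 CPM. It had a log2 fold change of -0.22 (standard error 0.07, adjusted p = 0.0338), again without overlap, and 18.3% of its exon bases are shared with an unnamed gene on the same strand. SETD7, a monomethyltransferase that also acts on proteins other than histones, was at 252.4, 237.6 and 233.5 against 201.3, 202.7 and 220.6 CPM (log2 fold change -0.21, standard error 0.07, adjusted p = 0.0467).

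These 3 calls were not equally firm. The adjusted p of SETD1B became 0.0606 when control replicate 1 was left out and 0.0548 when control replicate 2 was. KMT2A had 0.128 and 0.151 without these libraries, 0.118 without shikonin replicate 1 and 0.0549 without shikonin replicate 2. SETD7 had 0.203, 0.117 and 0.0752 without control replicates 1, 2 and 3, and 0.163 and 0.138 without shikonin replicates 1 and 2. In the same family KMT2C and KMT2E, at log2 fold changes of -0.26 and -0.24, narrowly missed the threshold (adjusted p = 0.061 and 0.0703), and their groups overlapped through shikonin replicate 3. KMT2D, the longest member with a transcript of 20635 bases, had -0.14 and KMT2B -0.06. SETD1A, the closest relative of SETD1B, had 0.03 with an interval from -0.12 to 0.18.

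None of the 6 H3K9, 2 H3K27, 4 H3K36 and 3 H4K20 methyltransferase genes passed the threshold with edgeR's test, DESeq2 or limma-voom, and 5 of them had an unadjusted p under 0.05. EZH2 was at 32.9, 29.6 and 30.2 CPM in controls and 23.4, 27.3 and 26.9 with shikonin. The groups did not overlap, but the adjusted p was 0.069 at a log2 fold change of -0.26 (interval -0.46 to -0.05). EZH1 had -0.05, with overlapping groups. SETDB1, which deposits H3K9 methylation on retroelements, was at 40.4, 42.3 and 40.7 CPM against 48.3, 50.8 and 42.4. Its lowest shikonin library barely exceeded the highest control library (log2 fold change 0.20, adjusted p = 0.12). SETDB2 had -0.31 (adjusted p = 0.138) at a low level of 9.06 CPM in the control group. Without shikonin replicate 3, SETDB1 passed at 0.29 on the log2 scale (adjusted p = 0.0103). About 12.9% of the exon bases of SETDB1 overlap CERS2 on the other strand, and strand use in counting is not given in the sources used here.

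The H3K36 methyltransferases NSD1, NSD2 and NSD3 had log2 fold changes of -0.17, -0.19 and -0.18, and the groups did not overlap in NSD1 and NSD2. NSD2 was the nearest to the threshold (adjusted p = 0.053). SETD2, the enzyme of H3K36 trimethylation, had -0.06 with an interval from -0.23 to 0.12. Among the H4K20 enzymes, KMT5A, which adds the first methyl group, had -0.03, KMT5B -0.19 and KMT5C -0.06. DOT1L, the H3K79 methyltransferase, had 0.07 with an interval from -0.09 to 0.23. SETD3, known as an actin histidine methyltransferase, had -0.07. The other genes of the SETD series were SETD4 at 0.29, SETD5 at 0.06, SETD6 at 0.04 and SETD9 at 0.23. SETD9 rested on few counts, with an interval from -0.30 to 0.76. SETD4, at 10.7, 11.3 and 10.9 CPM in the control libraries against 12.5, 14.3 and 13.3, had groups that did not overlap but did not pass (adjusted p = 0.111).

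Of the 17 demethylase genes, 4 were lower and 13 did not pass, against 11.1% lower among all tested genes. KDM7A, a JmjC demethylase of H3K9 and H3K27, was at 55.0, 62.2 and 60.4 CPM in controls and 44.01, 44.4 and 48.3 with shikonin. It had a log2 fold change of -0.38 (standard error 0.08, adjusted p = 0.00471) and was called with any library left out. KDM5A, an H3K4 demethylase known to bind RB1, was at 57.1, 54.3 and 54.4 against 42.6, 47.2 and 47.3 CPM (log2 fold change -0.28, standard error 0.08, adjusted p = 0.0217). KDM4B, a demethylase of H3K9 and H3K36, was at 105.8, 103.5 and 103.2 against 93.1, 89.2 and 76.7 CPM (log2 fold change -0.27, standard error 0.08, adjusted p = 0.0241). In all of these the highest shikonin library lay below the lowest control library.

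KDM5A lost its call when control replicate 1 (adjusted p = 0.101), control replicate 2 (0.0625) or shikonin replicate 1 (0.102) was left out. KDM4B lost it without control replicates 1, 2 or 3 (0.0968, 0.0763 and 0.0552), and without shikonin replicate 3 its log2 fold change was -0.17. The related genes KDM4A and KDM4C had log2 fold changes of -0.10 and -0.21, and the KDM5 paralogs KDM5B and KDM5C had 0.04 and -0.06. KDM3A and KDM3B, which act on H3K9, had -0.19 and -0.09. The H3K27 demethylases KDM6A and KDM6B had -0.01 and 0.07, with intervals from -0.20 to 0.18 and from -0.09 to 0.22. KDM7A, which also acts on H3K27, was lower, as given above. KDM2A, which binds unmethylated CpG islands and removes H3K36 methylation, was at 157.1, 151.9 and 152.7 CPM against 173.0, 188.4 and 160.7. Its groups did not overlap, but it did not pass (log2 fold change 0.18, adjusted p = 0.0999). Without shikonin replicate 3 it passed, at 0.26 (adjusted p = 0.00722). KDM2B had -0.00 with an interval from -0.16 to 0.16.

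**Figure D2:**
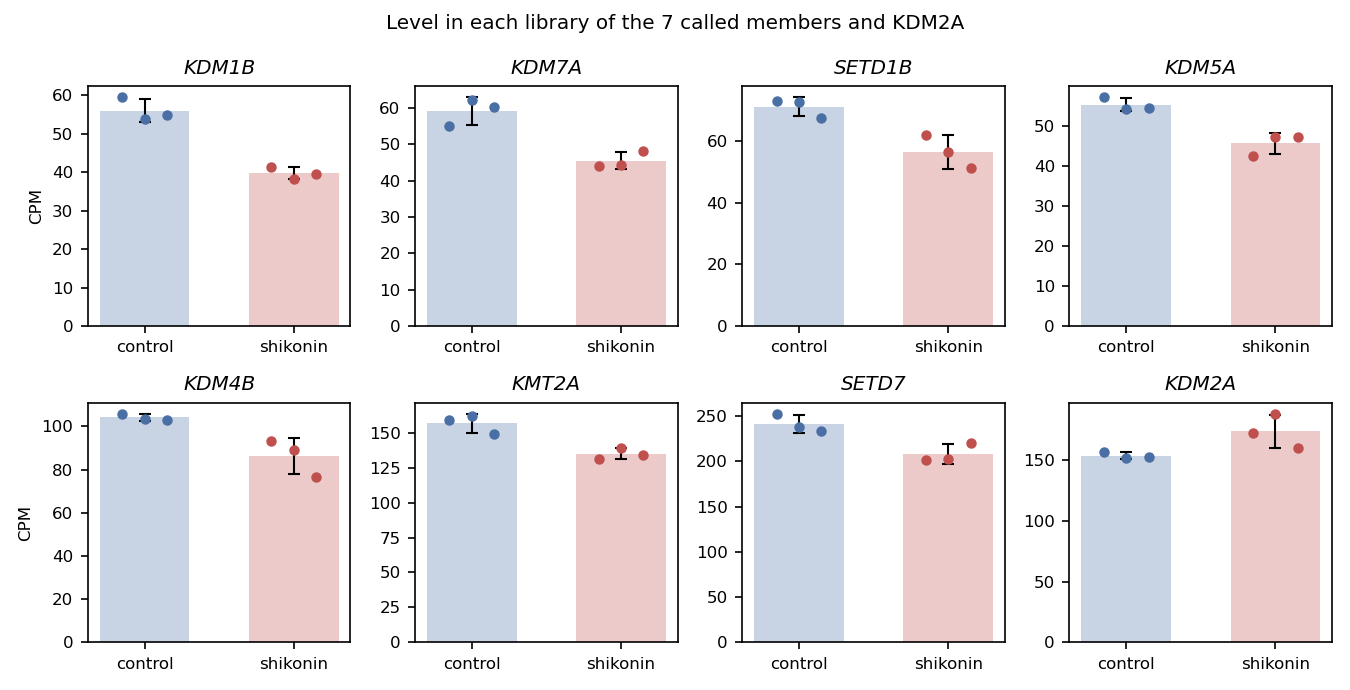
Level in CPM (vertical axes from 0) of the 7 genes called lower and of KDM2A in each library; points are libraries, bars the mean and error bars the SD of 3 libraries, blue for control and red for shikonin. In KDM1B the shikonin libraries lie between 38.2 and 41.3 and the control libraries between 53.8 and 59.5. Relative to their level, the gaps of SETD7 and KDM4B are narrower.

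Without control replicate 1 or control replicate 2, only KDM1B and KDM7A were called lower among the members, against 5.64% and 6.30% of all genes then tested. The number of lower members was 4 without shikonin replicate 1, against 7.07% of all genes. Without shikonin replicate 3 it was 11, against 13.9%, with KDM2A and SETDB1 higher, against 15.1%. In these fits the counts of members moved in the same direction as those over all genes. Without shikonin replicate 2, 5 members and 957 of all genes were lower. Without control replicate 3 the directions differed. There 7 members were lower, as many as in the main fit, while 1064 of all genes were lower, against 1504 in the main fit. The members were not all the same: 5 of the main fit's 7 kept their call. KDM4B and SETD7 lost theirs, and KDM3A and KMT2E gained one.

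**Figure D3:**
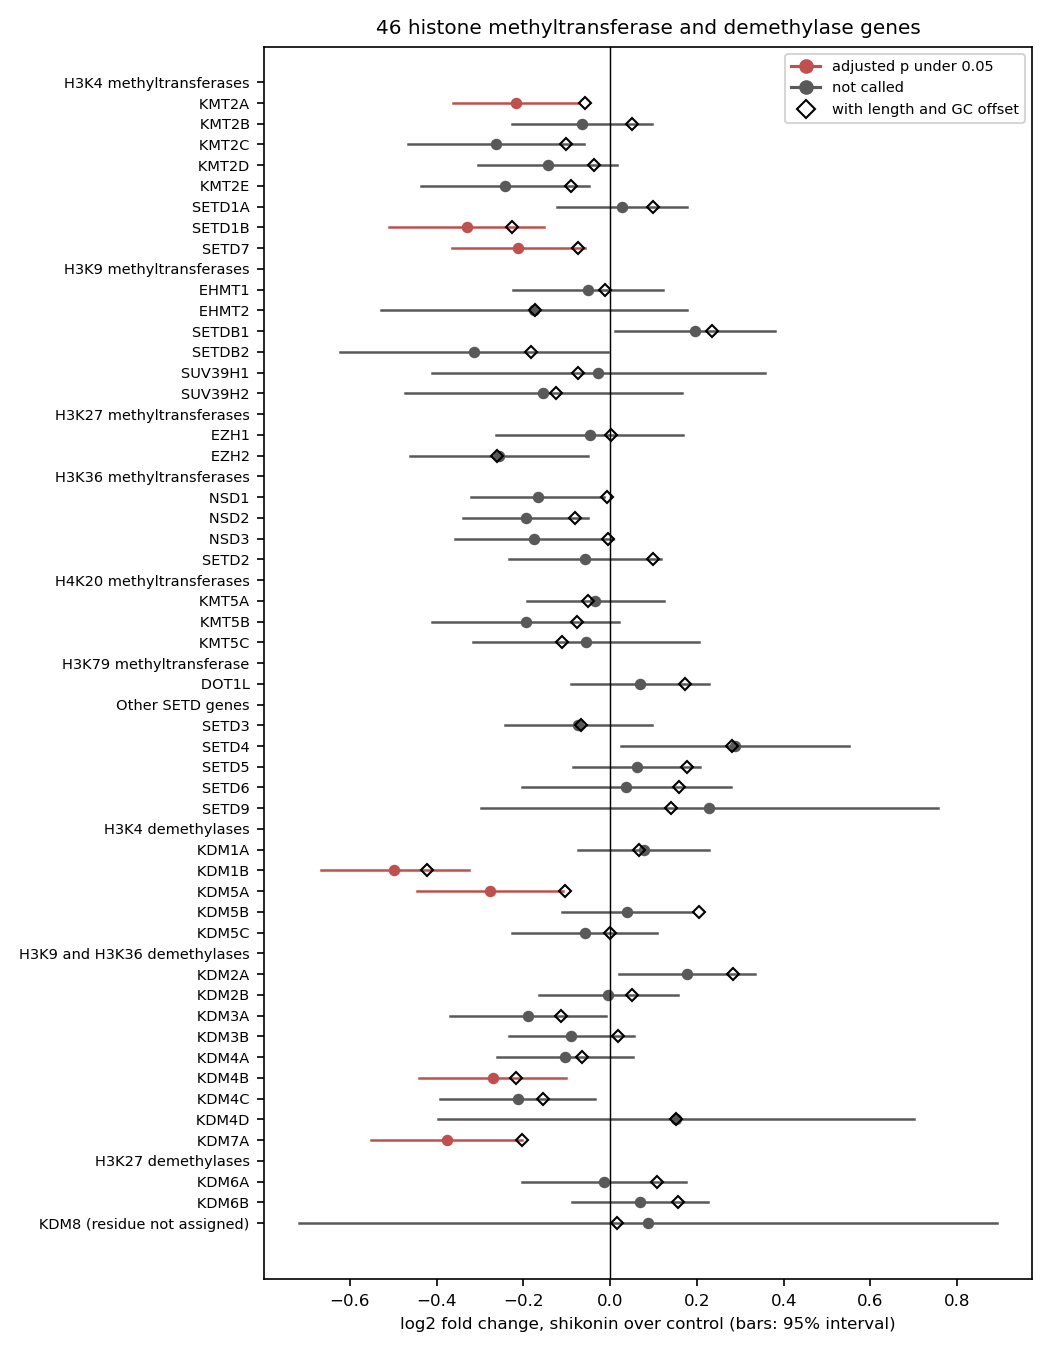
Log2 fold change of the 46 genes (horizontal axis, shikonin over control), grouped by assigned histone residue, with KMT2E under H3K4 and KDM7A under H3K9 and H3K36. Circles and bars give the estimate and its 95% interval, red for an adjusted p under 0.05. Open diamonds give the estimate with an offset for length and GC content of transcripts. The interval of KDM1B lies farthest below 0, from -0.67 to -0.33, and the diamond of KMT2A sits at -0.06 beside a circle at -0.22.

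The members have long transcripts, and this moved with their fold changes. Their median length was 5900.5 bases (canonical transcript), against 3265 over all tested genes with an annotated transcript, and 25 of the 46 were in the top length class when all genes were split into 5 classes of equal size. Over 13515 genes the log2 fold change fell with length (Spearman's rho = -0.309), and over the 46 members rho was -0.356. Both are descriptions across genes, which share the same libraries. In the class with the longest transcripts the median log2 fold change was -0.13 over all genes and -0.14 over the 25 members. There 21.8% of all genes and 5 of the 25 members (20%) were called lower. In the next class, 15.1% of all genes and 2 of the 10 members were lower. The share of lower genes among the members was thus close to that of other genes of their length.

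The length trend also differed between libraries of 1 group. Against the mean of the other control libraries, rho was 0.0732 for control replicate 1, 0.110 for control replicate 2 and -0.159 for control replicate 3. Against the control mean it was -0.320, -0.330 and -0.204 for shikonin replicates 1, 2 and 3. The members' median log2 difference was -0.12, -0.08 and -0.06 in these 3 libraries, and -0.05 in control replicate 3. Whether the trend arose in the cells or in the making of the libraries was not tested.

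With an offset for length and GC content of transcripts, 4 members were lower, namely KDM1B, SETD1B, KDM4B and EZH2, and 4 were higher, namely KDM2A, KDM5B, SETD5 and SETDB1. Each direction made up 8.70% of the members, against 11.7% lower and 12.3% higher among all tested genes under the same offset. The members' median log2 fold change was then -0.02. KDM1B stayed at -0.42 (adjusted p = 0.00077) and EZH2, whose transcript of 2654 bases is short for this family, at -0.26 (adjusted p = 0.032). KMT2A moved from -0.22 to -0.06 (adjusted p = 0.508), SETD7 from -0.21 to -0.07 (adjusted p = 0.378) and KDM5A from -0.28 to -0.10 (adjusted p = 0.283). KDM7A, with a transcript of 9220 bases, moved to -0.20 (adjusted p = 0.0539). KDM2A stood at 0.28 (adjusted p = 0.00559), SETDB1 at 0.23 (adjusted p = 0.0284), KDM5B at 0.20 (adjusted p = 0.0458) and SETD5 at 0.18 (adjusted p = 0.0384). With an offset for length alone, KDM1B was lower, KDM2A was higher and no other member was called, against 8.70% lower and 9.60% higher over all tested genes.

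**Figure D4:**
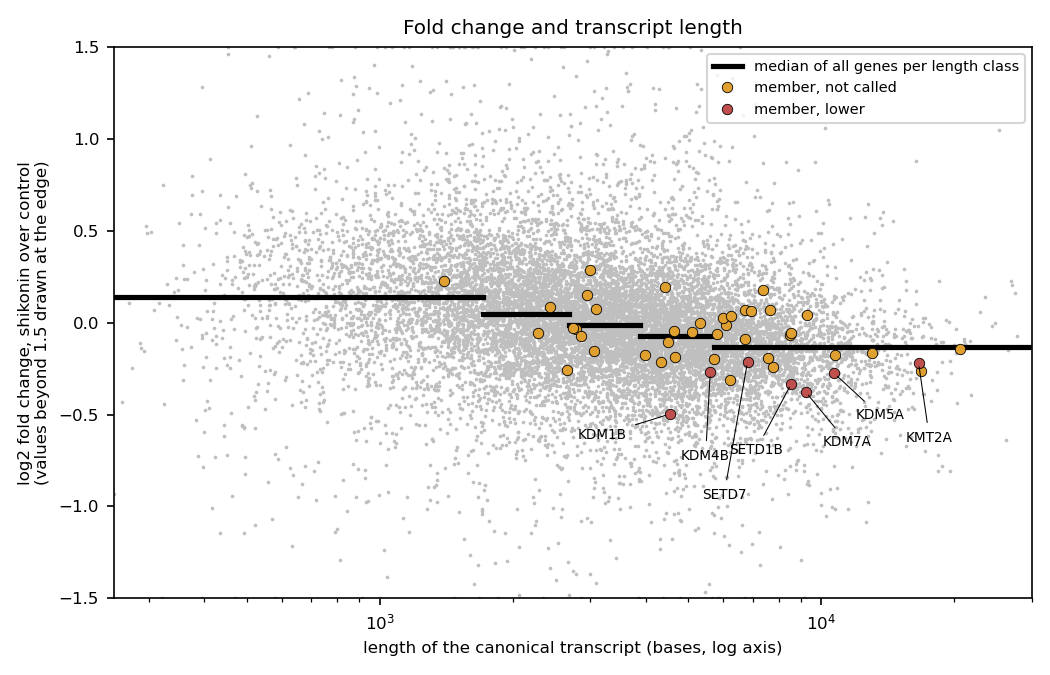
Log2 fold change (vertical axis, shikonin over control) against the length of the canonical transcript in bases (horizontal log axis); grey dots are tested genes, black bars the median of each of 5 classes of genes by length, and larger points the 46 members, red where called lower and orange otherwise; values beyond 1.5 are drawn at the edge and a few genes of extreme length lie outside the axis. The black bars step down from 0.14 to -0.13, and KDM1B, at 4538 bases and -0.50, lies farthest below them among the members.

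Ratios of paralogs within a library do not depend on how libraries are scaled, and 14 pairs were compared. In 7 pairs the groups did not overlap, which gives the smallest two-sided p that an exact permutation test of 3 against 3 allows (p = 0.1, and p = 0.2 after adjustment over the 14 pairs), so no pair can pass a threshold of 0.05. For single gene levels, which are not ratios, 20.3% of all tested genes were lower without overlap and 18.1% higher, and the share over ratios of other gene pairs was not computed. The ratio of KDM1B to KDM1A was 0.389, 0.359 and 0.365 in controls and 0.245, 0.236 and 0.269 with shikonin, a mean log2 difference of -0.57. The ratio of SETDB2 to SETDB1 was 0.229, 0.221 and 0.211 against 0.152, 0.135 and 0.181, a difference of -0.51. For SETD1B and SETD1A it was 0.961, 0.914 and 0.840 against 0.742, 0.707 and 0.664, a difference of -0.36. In these 3 pairs, the first gene has the longer transcript, by 1.40 to 1.47 times. KDM5A over KDM5B, KDM4B over KDM4A and KMT2A over KMT2B were also lower in every library labelled shikonin, with differences of -0.32, -0.17 and -0.15. KDM2A over KDM2B was higher by 0.18. The first gene is the longer in these pairs too, by 1.15, 1.25, 1.96 and 1.39 times in this order. In the pairs that overlapped, the first gene is the shorter except for SUV39H2 over SUV39H1, with a length ratio of 1.12. With the offset for length and GC content, KDM1B stood at -0.42 and KDM1A at 0.07, SETDB2 at -0.18 and SETDB1 at 0.23. SETD1B stood at -0.23 and SETD1A at 0.10, KDM5A at -0.10 and KDM5B at 0.20. KDM4B stood at -0.22 and KDM4A at -0.06, KMT2A at -0.06 and KMT2B at 0.05. KDM2A stood at 0.28 and KDM2B at 0.05. Whether length accounts for the ratios was not tested. The ratio of EZH2 to EZH1 overlapped between groups, at 1.39, 1.17 and 1.14 against 0.878, 1.16 and 1.18.

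**Figure D5:**
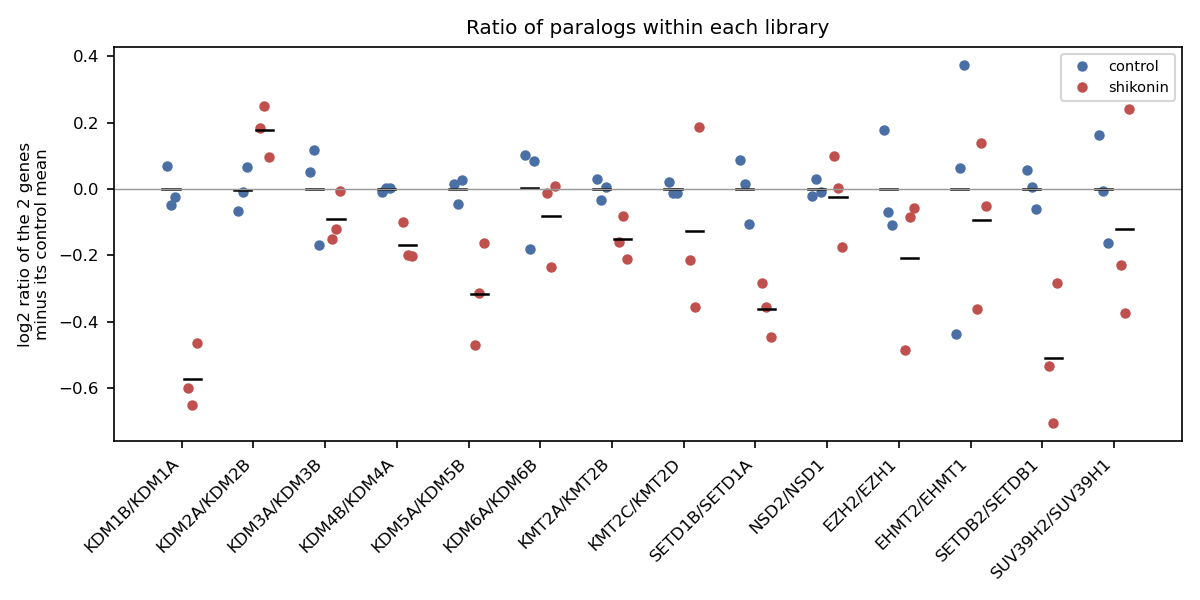
Log2 ratio of the CPM of 2 paralogs in each library minus its mean in the control group (vertical axis), for 14 pairs; blue points are control libraries, red points libraries labelled shikonin and black lines group means. The KDM1B/KDM1A and SETDB2/SETDB1 ratios lie lowest, with mean differences of -0.57 and -0.51.

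The enzymes work in complexes, and the subunits of these complexes were compared by the same fit. Of 11 tested partners of KDM1A in the CoREST complex, 4 were lower and none was higher, with a median log2 fold change of -0.12. Among all tested genes 11.1% were lower and 10.8% higher, and among the 127 tested genes of all the lists compared here 20 were lower and 8 higher. With the offset these became 15 lower and 16 higher. Genes named below as called with the offset alone were chosen after their values were seen. HMG20B, a DNA-binding subunit with a short transcript of 1585 bases, fell from 134 ± 2.72 to 98.5 ± 1.86 CPM (n = 3 per group, SD), a log2 fold change of -0.44 with adjusted p = 0.000413. With the offset for length and GC content it stood at -0.58 (adjusted p = 1.35e-05). GSE1 had -0.26 (adjusted p = 0.0273), RCOR2, a CoREST paralog, -0.45 (adjusted p = 0.0363) and PHF21A, a reader of unmethylated H3K4, -0.24 (adjusted p = 0.0455). With the offset RCOR2 also stayed lower, GSE1 and PHF21A did not pass, and HDAC2 was higher (0.31, adjusted p = 0.00432).

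Of 14 tested partners of the COMPASS and MLL complexes, WDR5, a core subunit shared by all of them, was higher at 0.22 (adjusted p = 0.0393), and HCFC2 was lower at -0.60 (adjusted p = 0.0423). The other 12 did not pass, and the median was -0.04. With the offset WDR5 and HCFC2 kept their calls and HCFC1 was also higher (0.28, adjusted p = 0.0107). Of 8 tested partners of EZH2 in Polycomb repressive complex 2, the histone-binding subunit gene RBBP7 was lower at -0.23 (adjusted p = 0.045) and 7 did not pass. With the offset RBBP7 stayed lower and JARID2 was higher (0.28, adjusted p = 0.00336). None of 10 partners of the H3K9 enzymes passed with edgeR's test, DESeq2 or limma-voom, and 1 had an unadjusted p under 0.05, but WIZ was higher with the offset (0.25, adjusted p = 0.00794). Of 8 tested partners of DOT1L and the super elongation complex, MLLT3, which recruits DOT1L, was lower at -0.64 (adjusted p = 0.0175), AFF1 at -0.28 (adjusted p = 0.0111) and AFF4 at -0.34 (adjusted p = 0.0131). With the offset MLLT3 remained lower, at -0.50 (adjusted p = 0.0249), and AFF1 and AFF4 did not pass.

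Related enzymes with other symbols were compared as well. Of 18 tested methyltransferases outside the symbol rule, 3 were higher and 1 was lower. PRMT1, the main enzyme of asymmetric arginine dimethylation, rose from 223 ± 1.93 to 330 ± 29.7 CPM (n = 3 per group, SD), a log2 fold change of 0.56 with adjusted p = 0.000256. PRMT5, the main enzyme of symmetric arginine dimethylation, had 0.40 (adjusted p = 0.00236) and SMYD5 0.42 (adjusted p = 0.0122). All 3 have shorter transcripts than most members, between 1328 and 2554 bases, and all 3 remained higher with the offset, PRMT1 at 0.40 (adjusted p = 0.00054). ASH1L, an H3K36 methyltransferase with a transcript of 12037 bases, was lower at -0.25 (adjusted p = 0.0249) but not with the offset (-0.07, adjusted p = 0.389). With the offset CARM1 was also higher (adjusted p = 0.0466) and PRMT2 lower (adjusted p = 0.0101). Of 8 tested JmjC genes outside the rule, JMJD6 was higher at 0.39 (adjusted p = 0.00215). PHF2 and PHF8, demethylases with a domain that reads methylated H3K4, were lower at -0.34 (adjusted p = 0.00397) and -0.31 (adjusted p = 0.0132). All 3 kept their direction and their call with the offset, under which RIOX2 and HR were also higher (adjusted p = 0.00416 and 0.026).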

How the data were processed

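Messenger RNA of 3 control and 3 shikonin libraries was sequenced, and the values the authors deposited are estimated counts of each gene without scaling. The paper names hg38, TopHat2 and featureCounts without versions, whereas the submitters' processing notes name GRCm38 and mm10; the gene identifiers are human. In each library 46.5% to 63.3% of nonzero values had a fractional part, so the estimated counts were rounded. Genes were kept by filterByExpr, normalized with TMM factors and compared with glmQLFit and glmQLFTest (edgeR 4.0.16, R 4.3.3), without covariates. Benjamini-Hochberg adjustment ran over all 13548 genes kept. CPM express counts relative to the TMM-scaled library total. Standard errors were taken from the log2 fold change and its F statistic. Lengths and positions are from GENCODE release 44 (GRCh38), which matched 34979 identifiers. The offset used natural splines (5 degrees of freedom each) on length and GC content in each library, and the fits were tested on simulated data.

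All members, and in each list up to 4 called genes with the smallest p, were eligible for naming. Members and lists were chosen with earlier results of these data known. The result of 1 list gene is not reported here. The alternatives included DESeq2 (1.42.0), voom (limma 3.58.1), other scalings and filters, the offsets, a replicate block and leaving out each library. No 2 libraries of a group agreed within sampling noise (mean chi-square per gene of at least 5.61). Overlapping exons can share reads: 40.2% of the exon bases of KDM4A and 18.3% of those of KMT2A overlap another annotated gene on the same strand.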

Additional observations from a re-analysis of the deposited data

How the results depend on the processing

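With library totals as the only scaling, 14 members were lower and the members' median log2 fold change was -0.13, while over all genes 1033 were higher and 2150 lower, against 1460 and 1504 with the main scaling. With the offset for length and GC content the members' median was -0.023, with 4 members higher and 4 lower, 16 list genes higher (8 in the main analysis) and a length trend of rho = -0.002. With the offset for length alone the median was -0.008, with 1 member higher and 1 lower, 15 list genes higher and 10 lower (20 in the main analysis), and rho = -0.001. With the replicate block 4 members were lower, and 1186 genes were higher and 1166 lower in all. With the block and the offset for length and GC content 3 were higher and 3 lower, the median was -0.026, 15 list genes were higher and 12 lower, and rho was -0.004. Libraries with equal replicate numbers showed no sign of pairing: their deviations from the group means correlated at -0.0393, -0.0232 and -0.0137. Unequal numbers gave -0.0719 to 0.102. These values cannot decide whether such libraries were grown or prepared together.

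Leaving out 1 library gave 0 to 2 members higher, 2 to 11 lower and a median of -0.112 to -0.054. Over all genes it gave 861 to 2074 higher and 776 to 1901 lower, and in the lists 5 to 16 higher and 9 to 24 lower. No called member changed direction under any alternative. Of 735 comparisons of a member under an alternative, 672 kept their side of the threshold, 36 lost and 27 gained a call. Depth limits genes with few counts: KDM8, with 21 to 59 counts a library, has an interval from -0.72 to 0.89.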

Other observations

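Enzymes of the other chromatin marks were measured by the same fit. For the counts below, 11.1% of all tested genes were lower and 10.8% higher. In the fifth with the longest transcripts 21.8% were lower. With the offset for length and GC content, 11.7% of all tested genes were lower and 12.3% higher. Of 11 tested histone acetyltransferase genes, 4 were lower and 1 was higher. KAT2B, also known as PCAF, fell from 8.63 ± 0.897 to 4.11 ± 0.385 CPM (n = 3 per group, SD), with a log2 fold change of -1.07 and adjusted p = 0.00077, a larger change than that of any member tested here. KAT5, which encodes the acetyltransferase TIP60, rose from 39.4 ± 0.221 to 57.6 ± 4.90 CPM (log2 fold change 0.55, adjusted p = 0.000484). EP300 was lower at -0.34 (adjusted p = 0.00326) and KAT6A at -0.32 (adjusted p = 0.00632). With the offset for length and GC content KAT2B (adjusted p = 0.000886), KAT5 (0.45) and EP300 (-0.20) kept their calls, and KAT6A did not (adjusted p = 0.0913), so that with HAT1 3 genes were lower and 1 was higher. Of 15 tested deacetylase genes, SIRT2 was lower at -0.55 (adjusted p = 0.0063) and HDAC10 at -0.39 (adjusted p = 0.00997), both also with the offset, under which HDAC2 and HDAC4 were higher.

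Of 8 DNA methylation enzymes, TET2, which oxidises methylated cytosine, was lower at -0.40 (adjusted p = 0.0231), but not with the offset (adjusted p = 0.0894), under which UHRF1 was lower (adjusted p = 0.0345). The choice to name genes called with the offset alone was made with their values in view. Of 8 genes of the methyl donor cycle, MTRR was higher at 0.43 (adjusted p = 0.00697) and MTAP at 0.35 (adjusted p = 0.0129), both also with the offset. None of 10 tested genes that make or use 2-oxoglutarate, the cofactor of the JmjC demethylases, passed with edgeR's test, DESeq2 or limma-voom, and 0 had an unadjusted p under 0.05.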
